A study of Arabidopsis thaliana with 12 samples.

Results

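Cytochrome P450 monooxygenases are heme enzymes, most of them in the endoplasmic reticulum, that insert oxygen into small hydrophobic molecules. In Arabidopsis they form a very large gene family, and its members make and inactivate hormones, build sterols, waxes and phenolics, and produce defense compounds such as glucosinolates and camalexin. Salt and osmotic stress are known to act on several of these branches, among them the turnover of abscisic acid (ABA) and of jasmonate. A P450 name gives the family as a number, the subfamily as a letter and then the gene.

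The P450 members described here are the probe sets paired with 1 gene whose symbol starts with CYP, 2 or 3 digits and a letter, with CYP97B3 left out by the rule. There were 38 such probe sets, each for a different gene, of 22746 probe sets tested. They fall into 13 families and 15 subfamilies, and 21 of them belong to CYP71B. The gene annotation of the array paired 23 of them, which are 19 CYP71B genes with CYP51G2, CYP78A9, CYP79A2 and CYP84A4. The other 15 could be named only through the authors' lists of probe sets that responded to salt or differed between the genotypes on these same arrays. Of those 15, 13 were listed as higher and 1 as lower with salt in the overexpressor, 5 as higher and 1 as lower with salt in the wild-type, and 1 as different between the mock-treated genotypes. The values of these 15 in the comparisons that listed them are given below as description, with no test. RefSeq holds 236 genes with symbols of this form, so most of the family was not named here, and the genes that were named are mainly CYP71B or genes that had been chosen for their response.

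Expression was measured with Affymetrix ATH1 GeneChips in whole Arabidopsis seedlings of the Columbia background. The 4 groups held 3 biological replicates each, and they were line 20 of the PtSnRK2.7 overexpressor exposed to 200 mM NaCl, the same line after mock treatment, the wild-type exposed to 200 mM NaCl, and the wild-type after mock treatment. Seedlings were moved to salt or mock medium at an age of 7 days and stayed there for 2 days. PtSnRK2.7 is a poplar protein kinase of the SnRK2 family, expressed here from the constitutive 35S promoter, and a single transgenic line was profiled. No probe set was assigned to the poplar transgene, so the genotype labels were not checked by its level.

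The values are MAS5 signals on a linear scale, which the authors had scaled so that the trimmed mean was 500.04 to 500.05 on each of the 12 arrays. The 20th percentile of the signals, used below as a mark for low values, was 20.6 to 27.8 on the different arrays. A gene was called higher or lower at a Benjamini-Hochberg adjusted p under 0.05 over all probe sets in limma, and log2 changes are salt over mock or overexpressor over wild-type. Within groups, the median SD of the members was 0.25 (log2) in the salt-treated overexpressor and 0.26 in the mock-treated overexpressor, against 0.57 with salt and 0.39 after mock treatment in the wild-type. The salt-treated wild-type arrays stood apart from each other. The median absolute log2 change of the members was 1.85, 1.09 and 1.58 in wild-type replicates 1, 2 and 3, and 1.86, 1.57 and 1.87 in the overexpressor replicates. Replicate 2 had the lowest salt-treated signal in 16 of the 18 members called higher in the wild-type, and replicate 2 of the overexpressor had it in 12 of 17. Of the tissue markers, the 2 measured of 8 for shoots, RCA and SBPASE, were lower under salt. Their summed signal in the overexpressor ranged over 11333 to 13005 with salt and 27929 to 40902 after mock treatment, and wild-type sums ranged over 7976 to 25713 with salt and 30940 to 34730 after mock treatment. The 3 measured of 9 root markers summed to 712 to 848 against 2089 to 2872 in the overexpressor and to 762 to 1290 against 1693 to 1844 in the wild-type, salt before mock in each. Of these 3, CASP1 and XCP1 were named through the authors' lists of changed probe sets, so the fall of the sum is not independent. EXPA7, paired through the annotation, did not pass the test in limma. Its log2 changes were -0.09 in the overexpressor (adjusted p = 0.78) and 0.37 in the wild-type (adjusted p = 0.2). The 1 measured of 7 seed markers, PAP85, was near background on all arrays (7.19 to 30.9), and none of 5 flower markers was measured. The part of these shifts in the P450 results was not tested, and in whole seedlings a change in the share of a tissue and a change per cell cannot be told apart.

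Low signals limited many of the CYP71B probe sets. CYP71B16, CYP71B31, CYP79A2 and the pseudogene CYP71B30P lay in the lowest 20% of the signals on all 12 arrays, and 12 members, all of them paired through the annotation, did so on at least 1 array. The other 26 members were above that level on every array. The map of signals by array shows the dark rows of these low members and, under the dividing line, the high salt-treated signals for which most of the listed genes had been chosen.

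**Figure D1:**
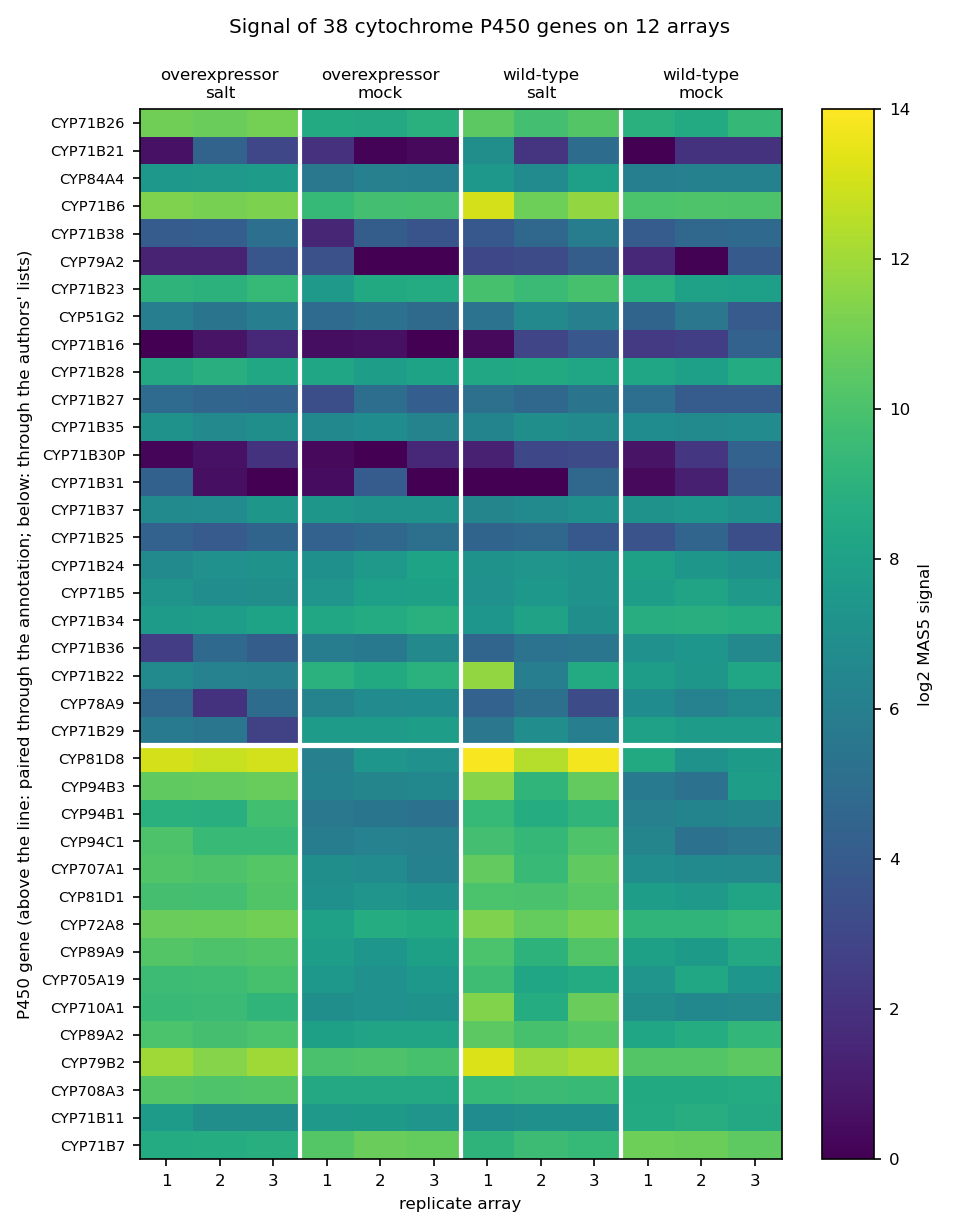
Signal of the 38 P450 genes (rows) on the 12 arrays (columns, 3 replicates in each of 4 groups), coloured by log2 MAS5 signal from 0 to 14, with lower values drawn as 0. The 23 genes above the white line were paired through the annotation and the 15 below it through the authors' lists; rows within each block run from the largest to the smallest log2 change with salt in the overexpressor, and 4 of the rows stay in the lowest 20% of the signals on every array.

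With salt, the P450 genes paired through the annotation moved in both directions, and their shares were close to those of all probe sets. In the overexpressor, 4 of 23 rose and 5 fell, while 17.1% of all probe sets rose and 24% fell. In the wild-type, 5 of 23 rose and 5 fell, against 17.2% and 21.9% of all probe sets. The median log2 change of the 23 was 0.36 in the overexpressor and 0.12 in the wild-type, and that of all probe sets was -0.09 and -0.07. CYP71B6, CYP71B23, CYP71B26 and CYP84A4 rose in both genotypes, CYP51G2 passed the test as higher in the wild-type, and CYP71B5, CYP71B29, CYP71B34, CYP71B36 and CYP78A9 fell in both. None passed the test in opposite directions in the 2 genotypes. The salt-treated and mock-treated arrays did not overlap for 12 of the 23 in the overexpressor (6 above and 6 below) and for 11 in the wild-type (5 above and 6 below), while 23.3% of all probe sets lay above and 31.7% below in the overexpressor (55% in all), and 21.1% above and 26.8% below in the wild-type (47.9% in all).

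Among all 38 members, 17 were called higher and 6 lower in the overexpressor, and 18 were called higher and 7 lower in the wild-type. These counts hold the genes chosen for their response, so nothing is read from them against the background. Leaving out wild-type salt replicate 1 gave 17 higher and 5 lower in the wild-type, and leaving out replicate 2 gave 19 and 7. With the stricter limit of an adjusted p under 0.01 and a change above 3-fold, 15 were higher and 4 lower in the overexpressor, and 11 were higher and 1 lower in the wild-type, while 4.88% and 5.35% of all probe sets passed it as higher and lower in the overexpressor and 4.62% and 3.99% in the wild-type.

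The authors' lists held 9 of the genes for the overexpressor and not for the wild-type, so the wild-type values did not bring these 9 among the members, although they did decide which genes make up the 9. Of these 9, 8 were called higher and 1 lower in the wild-type, each in the direction of the overexpressor, while 17.2% of all probe sets were called higher and 21.9% lower. The share among all probe sets that responded in the overexpressor was not computed, so nothing particular to P450 genes is read from this count. The 8 were CYP79B2, CYP89A2, CYP89A9, CYP94B3, CYP94C1, CYP705A19, CYP708A3 and CYP710A1, and the lower gene was CYP71B7. In the plot of both salt responses most of the listed genes lie near the line of equal change, and CYP71B11, CYP710A1 and CYP705A19 lie farther from it.

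**Figure D2:**
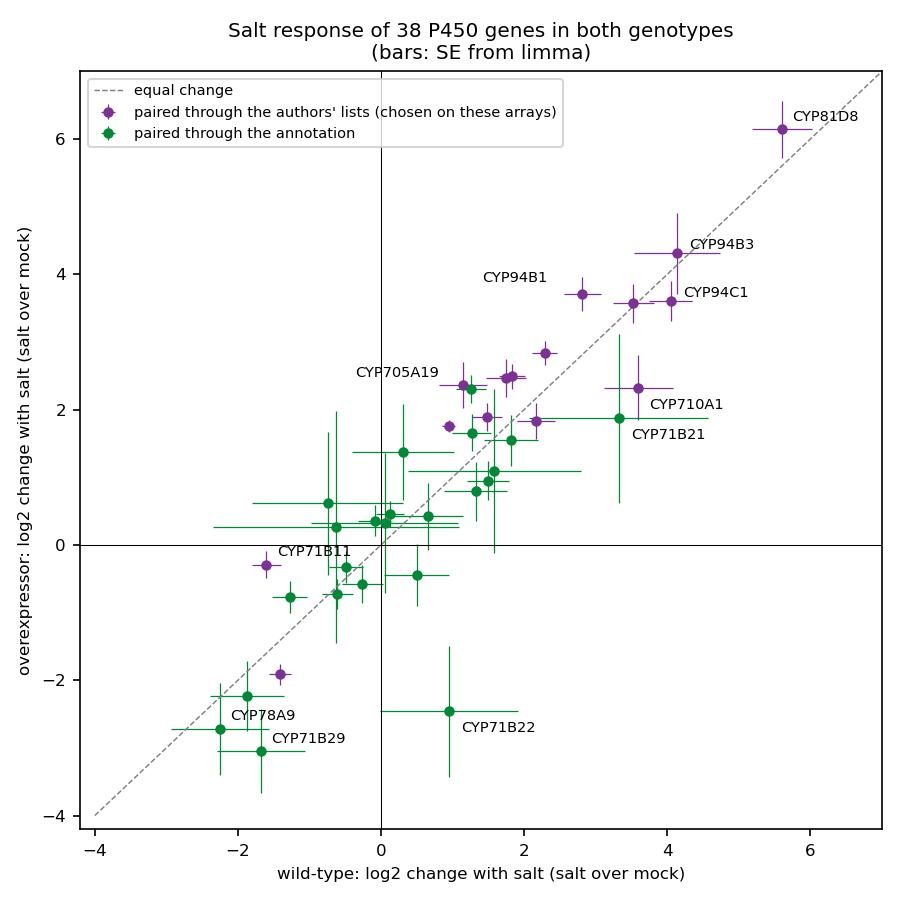
Log2 change with salt in the overexpressor (y axis) against that in the wild-type (x axis) for the 38 P450 genes, salt over mock, with SE from limma as bars. CYP81D8 lies farthest out at 6.14 and 5.60, many genes lie near the dashed line of equal change, and CYP71B22 lies apart at -2.46 and 0.95, a difference that did not pass the test.

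The 3 members of the jasmonate branch were all named through the authors' lists of genes higher with salt in the overexpressor. CYP94B1 was listed for the wild-type too, so the rise of the 3 is description. Their signals were much higher with salt in both genotypes. CYP94B1 and CYP94B3 hydroxylate the active conjugate jasmonoyl-isoleucine, and CYP94C1 oxidizes it further, steps that inactivate the hormone. The signal of CYP94B1 (AT5G63450) was 468, 456 and 879 in the salt-treated overexpressor, against 49.4, 43.3 and 39.4 in the mock-treated overexpressor. In the wild-type it was 669, 414 and 576 with salt, against 67.8, 78.5 and 86.2 without. The groups were well apart in both genotypes, with log2 changes of 3.71 and 2.81 (SE 0.26 each), overexpressor first. CYP94B3 (AT3G48520) reached 1537, 1613 and 1696 in the salt-treated overexpressor, against 71.5, 82.4 and 91.6 after mock treatment, a log2 change of 4.31 (SE 0.60). Its wild-type signals were 2806, 581 and 1582 with salt, against 56.4, 37.2 and 227 after mock treatment. The wild-type replicates were spread widely but did not overlap, with a log2 change of 4.13 (SE 0.60, adjusted p = 0.00018 in limma). CYP94C1 (AT2G27690) was at 1109, 698 and 701 in the salt-treated overexpressor, against 58.6, 74.6 and 69.5 after mock treatment (log2 change 3.60, SE 0.30). Wild-type signals were 909, 643 and 1148 with salt, against 83.4, 37.4 and 47.4 after mock treatment (log2 change 4.05, SE 0.30, adjusted p = 1.6e-06 in limma).

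The other jasmonate genes that could be measured had all been named from the authors' lists as well, so their direction is not independent. AOS, the P450 that forms the allene oxide from which jasmonate is made, had log2 changes of 2.51 in the overexpressor and 2.05 in the wild-type (SE 0.11 each). HPL1, the P450 of the competing hydroperoxide lyase branch, had 2.64 and 1.60 (SE 0.27 each). Of 6 genes of jasmonate conjugate turnover outside the P450 family, 2 were measured and both were higher in both genotypes. They were ILL6, an amidohydrolase of these conjugates, at 3.51 and 3.38 (SE 0.25 each), and ST2A, a sulfotransferase of hydroxyjasmonate, at 3.12 and 3.36 (SE 0.28 each).

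CYP707A1 (AT4G19230), an ABA hydroxylase that starts the breakdown of ABA, was the single member of the CYP707 family named here. Its signal was 1180, 1074 and 1278 in the salt-treated overexpressor, against 126, 108 and 70.7 in the mock-treated overexpressor. The wild-type had 1595, 685 and 1523 with salt, against 114, 98.5 and 97.2 after mock treatment. The log2 changes were 3.57 in the overexpressor and 3.52 in the wild-type (SE 0.29 each), and the salt-treated arrays lay far above the mock-treated arrays in both. Of 11 genes of ABA synthesis and conjugation, 2 were measured. UGT71B6, an ABA glucosyltransferase, rose by 2.06 in both genotypes (SE 0.64 each, adjusted p = 0.021 in the overexpressor and 0.022 in the wild-type in limma). UGT71C5, another ABA glucosyltransferase, fell by 0.63 in the overexpressor (SE 0.13, adjusted p = 0.0022) and had a log2 change of 0.35 in the wild-type (adjusted p = 0.052).

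In indole metabolism the 2 well expressed P450 genes were higher with salt, and CYP79B2 had been listed for this in the overexpressor. CYP79B2 (AT4G39950), which turns tryptophan into indole-3-acetaldoxime, the shared precursor of indole glucosinolates and camalexin, had signals of 4143, 2852 and 4101 in the salt-treated overexpressor, against 1000, 1105 and 978 in the mock-treated overexpressor (log2 change 1.83, SE 0.26). In the wild-type its signals were 9871, 3996 and 4971 with salt, against 1226, 1217 and 1446 after mock treatment (log2 change 2.17, SE 0.26, adjusted p = 5.5e-05 in limma). CYP71B6 (AT2G24180), which oxidizes indole acetonitrile, was paired through the annotation and so was not chosen for its response. It had 2506, 2222 and 2445 in the salt-treated overexpressor, against 659, 894 and 928 in the mock-treated overexpressor. In the wild-type it had 8692, 1913 and 3387 with salt, against 1061, 1118 and 1093 after mock treatment. CYP71B6 rose by 1.55 (SE 0.38, adjusted p = 0.0056) in the overexpressor and by 1.81 (SE 0.38, adjusted p = 0.0023) in the wild-type in limma. The salt-treated arrays were above the mock-treated arrays in both genotypes, and the wild-type replicates differed most from each other. CYP79A2, which turns phenylalanine into its aldoxime, lay near background on all 12 arrays (0.77 to 17.4), with log2 changes of 1.09 (SE 1.21, adjusted p = 0.52) and 1.58 (SE 1.21, adjusted p = 0.34). With low signals set to the 20th percentile these changes were -0.02 and -0.01.

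PAD3, the P450 of the last step of camalexin synthesis, had log2 changes of 4.23 in the overexpressor and 4.75 in the wild-type (SE 0.47 each) and was also named through the authors' lists. Of 29 genes of glucosinolate and camalexin synthesis that are not P450s, 7 were measured, of which 1 was higher and 6 lower in the overexpressor, and 1 was higher and 5 lower in the wild-type. Of the 7, 5 were named through the lists of changed probe sets, so no direction of the group is read from these counts. The annotation paired the other 2, UGT74B1, a glucosyltransferase that acts in all glucosinolate classes, and BCAT4, an aminotransferase of methionine chain elongation for the aliphatic glucosinolates. BCAT4 fell by 3.31 in the overexpressor (SE 0.40, adjusted p = 4e-05) and fell by 1.97 in the wild-type (SE 0.40, adjusted p = 0.0018). UGT74B1 fell by 0.35 in the overexpressor (SE 0.12, adjusted p = 0.028) and had a log2 change of -0.03 in the wild-type (adjusted p = 0.87). MYB28, the regulator of aliphatic glucosinolate genes, was lower too, with log2 changes of -3.42 and -2.96 (SE 0.37 each), as was MAM1, the first enzyme of chain elongation, with -3.91 and -2.53 (SE 0.48 each). ATGSTU4, a glutathione transferase, was the higher one, with 5.67 and 4.71 (SE 0.40 each).

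**Figure D3:**
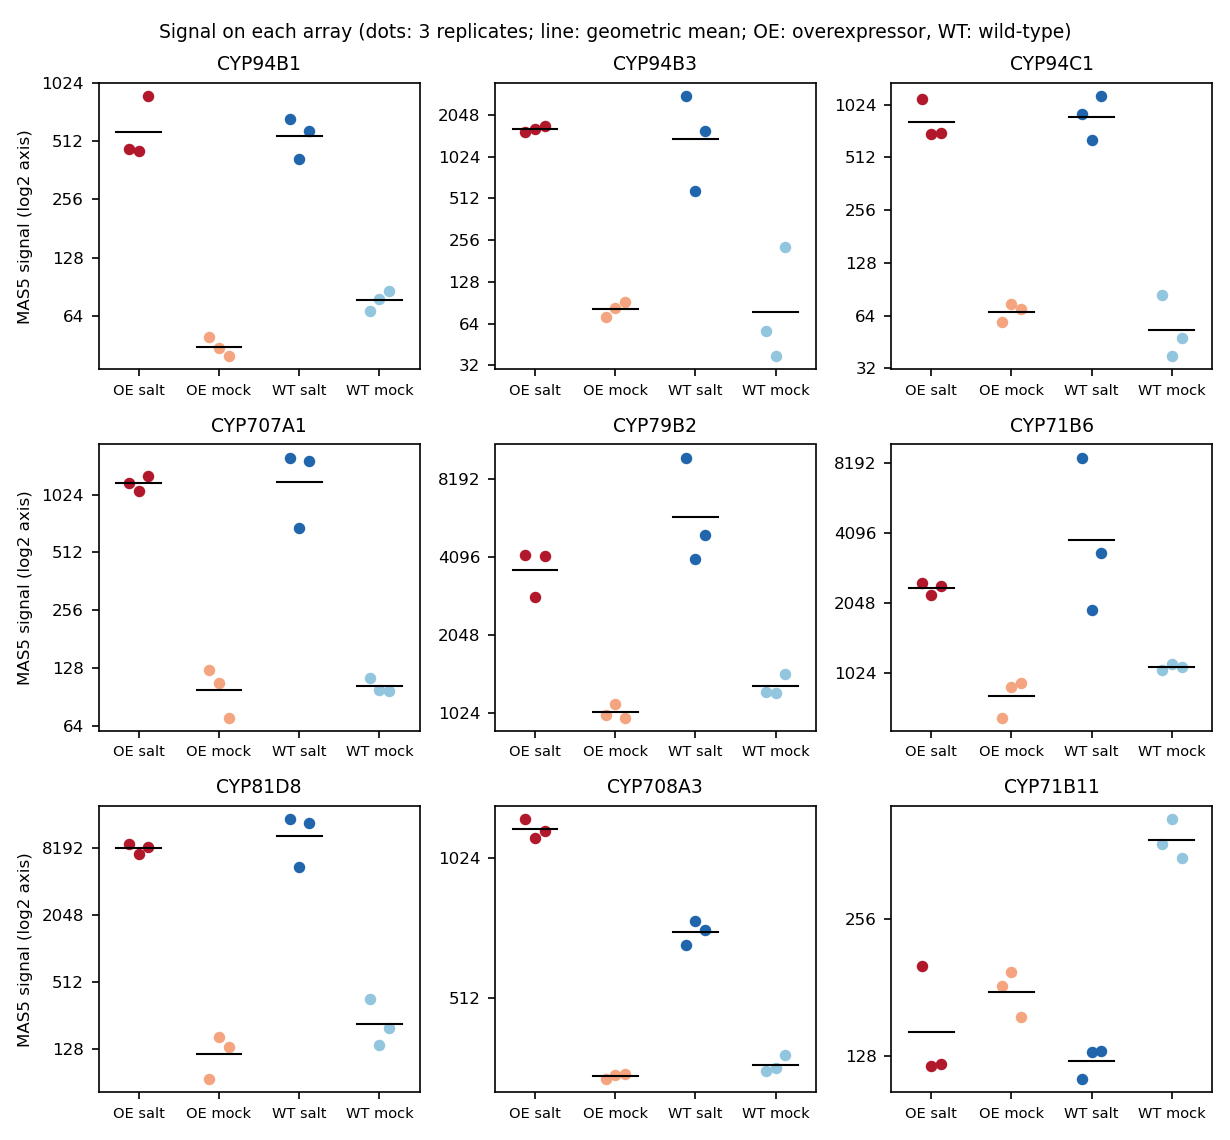
MAS5 signal (log2 axis) of 9 P450 genes on each array, with the overexpressor salt, overexpressor mock, wild-type salt and wild-type mock groups from left to right, 3 replicates as dots and the geometric mean as a line. In all but CYP71B11 the salt-treated arrays lie above the mock-treated arrays of the same genotype, and CYP708A3 lies between 1129 and 1240 in the salt-treated overexpressor, against 665 to 751 in the salt-treated wild-type.

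CYP81D8 (AT4G37370), a gene known to respond to many chemical stresses and with no settled substrate, had the largest change of the 38. Its signal was 8892, 7308 and 8327 in the salt-treated overexpressor, against 68.6, 166 and 135 in the mock-treated overexpressor. The wild-type had 14953, 5549 and 13906 with salt, against 360, 139 and 201 after mock treatment. All 6 salt-treated arrays exceeded all 6 mock-treated arrays, with log2 changes of 6.14 and 5.60 (SE 0.42 each). Its relative CYP81D1 (AT5G36220) had log2 changes of 2.84 and 2.29 (SE 0.17 each). CYP72A8 (AT3G14620) had 2.49 and 1.83 (SE 0.18 each).

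Both CYP89A genes named here had been listed by the authors as higher with salt in the overexpressor, and both were higher in the wild-type too. CYP89A9 (AT3G03470), which oxidizes breakdown products of chlorophyll in senescing leaves, was at 1220, 1085 and 1193 in the salt-treated overexpressor, against 227, 165 and 250 in the mock-treated overexpressor (log2 change 2.47, SE 0.28). Its wild-type signals were 1035, 533 and 1185 with salt, against 249, 200 and 349 after mock treatment (log2 change 1.74, SE 0.28, adjusted p = 0.00036 in limma). CYP89A2 (AT1G64900) had log2 changes of 1.89 in the overexpressor and 1.47 in the wild-type (SE 0.21 each, adjusted p = 0.00016 in the wild-type). The shoot markers named above moved with these genes, in the opposite direction.

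In sterol metabolism, CYP710A1 (AT2G34500), the desaturase that makes stigmasterol, was at 707, 748 and 582 in the salt-treated overexpressor, against 126, 138 and 142 in the mock-treated overexpressor (log2 change 2.32, SE 0.48). The wild-type had 2586, 414 and 1799 with salt, against 123, 92.5 and 96.1 after mock treatment (log2 change 3.59, SE 0.48, adjusted p = 0.00011 in limma). The salt-treated wild-type arrays lay on both sides of the salt-treated overexpressor arrays. CYP51G2 (AT2G17330), a divergent relative of the sterol demethylase genes, was low. It had 63.1, 42.3 and 64 in the salt-treated overexpressor, against 30, 37.9 and 28.8 in the mock-treated overexpressor, which did not overlap (log2 change 0.79, SE 0.44, adjusted p = 0.17). In the wild-type it had 40.9, 95.4 and 69.3 with salt, against 22.7, 47.3 and 16.2 after mock treatment, which overlapped (log2 change 1.32, SE 0.44, adjusted p = 0.029). The wild-type call was lost without wild-type mock replicate 1 or 3 or without wild-type salt replicate 2 or 3, with adjusted p of 0.077 to 0.12.

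CYP84A4 (AT5G04330) is a relative of the ferulate hydroxylase FAH1 and makes intermediates of arabidopyrones. It was at 178, 191 and 205 in the salt-treated overexpressor, against 49.5, 68.8 and 64.8 in the mock-treated overexpressor. The wild-type had 179, 106 and 243 with salt, against 66.4, 69.8 and 71.1 after mock treatment. The gene rose by 1.66 (SE 0.27, adjusted p = 0.00036) in the overexpressor and by 1.27 (SE 0.27, adjusted p = 0.0025) in the wild-type, with no overlap in either. Of 19 other phenylpropanoid genes, 6 were measured, of which 2 were higher and 3 lower in the overexpressor and 2 were higher and 2 lower in the wild-type. The authors' lists named 3 of the 6, and of the 3 paired through the annotation 1 was higher and 1 lower in the overexpressor and 1 was higher and 0 lower in the wild-type, against 17.1% and 24% of all probe sets in the overexpressor and 17.2% and 21.9% in the wild-type. CCR2, a cinnamoyl-CoA reductase paired through the annotation, rose by 2.33 and 2.93 (SE 0.29 each, adjusted p = 4.5e-05 and 1.2e-05), overexpressor first.

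CYP78A9 (AT3G61880), which promotes the growth of fruits and seeds, was the member outside CYP71B that fell. Its signal was 26.1, 4.07 and 30.5 in the salt-treated overexpressor, against 76.1, 109 and 111 in the mock-treated overexpressor. The wild-type had 21.4, 35.9 and 9.70 with salt, against 111, 72.6 and 99.5 after mock treatment. It fell by 2.72 (SE 0.68, adjusted p = 0.0063) in the overexpressor and fell by 2.25 (SE 0.68, adjusted p = 0.019) in the wild-type, and no array overlapped. Some of its salt-treated signals lay in the lowest 20%, and when lower signals were set to that level the log2 changes were -1.94 and -1.74. The wild-type call was lost without wild-type mock replicate 1 (adjusted p = 0.062) or 3 (0.053) or wild-type salt replicate 3 (0.084).

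CYP71B is a large subfamily whose genes stand mostly in tandem clusters, and most of its members have no settled function. Of the 19 CYP71B genes paired through the annotation, 3 rose, 4 fell and 12 did not pass the test in the overexpressor, and the counts were the same in the wild-type. These shares, 15.8% higher and 21.1% lower, were close to those of all probe sets. Of all probe sets, 17.1% rose and 24% fell in the overexpressor, and 17.2% rose and 21.9% fell in the wild-type. In the RefSeq gene order, CYP71B21, CYP71B22 and CYP71B23 are direct neighbours, as are CYP71B34, CYP71B35, CYP71B36 and CYP71B37, and CYP71B28, CYP71B29 and CYP71B7. CYP71B26 stands 1 gene away from CYP71B34. Neighbours are similar in sequence, so a probe set of one may also have bound transcripts of another, and the value of each is uncertain to that degree.

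**Figure D4:**
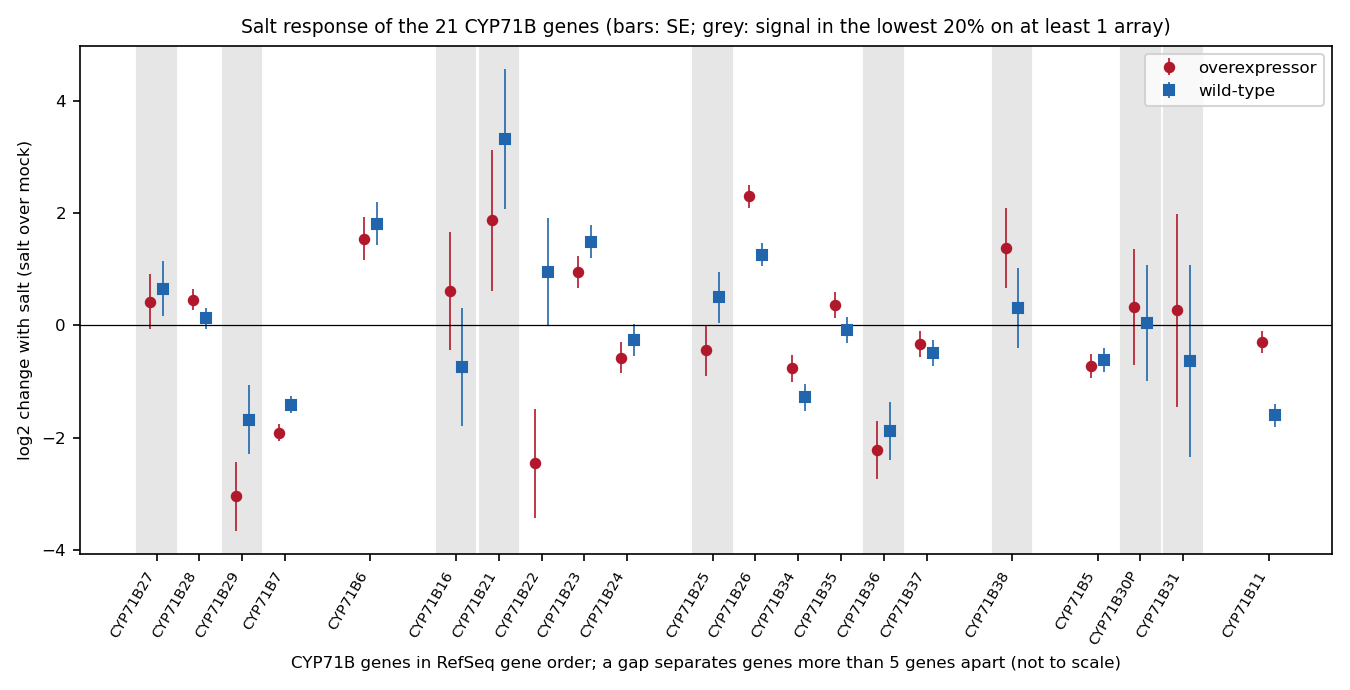
Log2 change with salt (salt over mock) of the 21 CYP71B genes in the RefSeq gene order, overexpressor as circles and wild-type as squares, with SE from limma; distances are not to scale, and grey marks genes in the lowest 20% of the signals on at least 1 array. CYP71B26 lies above 0 and the nearby CYP71B34 and CYP71B36 lie below 0 in both genotypes. CYP71B35, between CYP71B34 and CYP71B36, lies at 0.36 in the overexpressor and -0.09 in the wild-type. The widest bars belong to low or spread signals.

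Within these clusters, genes standing close together did not all move in the same direction. CYP71B26 rose and CYP71B34 fell, while the direct neighbours CYP71B29 and CYP71B7 were both lower, in both genotypes. CYP71B26 (AT3G26290) was at 1997, 1759 and 2137 in the salt-treated overexpressor, against 383, 352 and 465 in the mock-treated overexpressor. The wild-type had 1408, 893 and 1244 with salt, against 470, 372 and 652 after mock treatment. The salt-treated arrays were above the mock-treated arrays in both, with a rise of 2.30 in the overexpressor (SE 0.21, adjusted p = 4.4e-06) and of 1.26 in the wild-type (SE 0.21, adjusted p = 0.00045). It was the 1 gene paired through the annotation that the authors' overexpressor list also held. CYP71B34 (AT3G26300) was at 204, 225 and 283 in the salt-treated overexpressor, against 337, 394 and 482 in the mock-treated overexpressor. The wild-type had 164, 267 and 124 with salt, against 430, 445 and 404 after mock treatment. It fell by 0.77 (SE 0.24, adjusted p = 0.021) in the overexpressor and fell by 1.28 (SE 0.24, adjusted p = 0.0011) in the wild-type, and the overexpressor call was lost without its mock replicate 2 or 3 or its salt replicate 1 or 2 (adjusted p of 0.05 to 0.091). CYP71B36 (AT3G26320) was at 5.84, 27.4 and 17.6 in the salt-treated overexpressor, against 59.3, 51 and 96 in the mock-treated overexpressor. The wild-type had 23.6, 40.6 and 44.7 with salt, against 135, 161 and 97.7 after mock treatment. It fell by 2.23 (SE 0.52, adjusted p = 0.0038) in the overexpressor and fell by 1.88 (SE 0.52, adjusted p = 0.011) in the wild-type, and the groups did not overlap in either genotype. The genes on both sides of CYP71B36 did not pass the test, with log2 changes of 0.36 and -0.09 for CYP71B35 (SE 0.23 each) and of -0.33 and -0.49 for CYP71B37 (SE 0.24 each).

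In the cluster of CYP71B28, CYP71B29 and CYP71B7, CYP71B29 (AT1G13100) was at 55.8, 45.8 and 6.83 in the salt-treated overexpressor, against 204, 212 and 228 in the mock-treated overexpressor. In the wild-type it was at 46.8, 116 and 64.2 with salt, against 263, 210 and 209 after mock treatment. It fell by 3.05 (SE 0.62, adjusted p = 0.0016) in the overexpressor and fell by 1.68 (SE 0.62, adjusted p = 0.046) in the wild-type. With low signals set to the 20th percentile the overexpressor change was -2.42, and the wild-type call was lost without any of the wild-type mock or overexpressor mock arrays and without wild-type salt replicate 1 or 3, with adjusted p of 0.061 to 0.14. CYP71B7 (AT1G13110), listed as lower in the overexpressor, was at 389, 414 and 432 in the salt-treated overexpressor, against 1263, 1751 and 1671 in the mock-treated overexpressor (log2 change -1.91, SE 0.16). Signals in the wild-type were 549, 780 and 668 with salt, against 1935, 1851 and 1499 after mock treatment (log2 change -1.41, SE 0.16, adjusted p = 3e-05 in limma). CYP71B28, next to CYP71B29 on the other side, was at 348, 434 and 328 in the salt-treated overexpressor, against 313, 223 and 274 in the mock-treated overexpressor (log2 change 0.46, SE 0.19, adjusted p = 0.072). CYP71B28 passed the test after median centring (adjusted p = 0.02), which adds 0.14 to every log2 change in the overexpressor, and without wild-type mock replicate 3 (0.046). It also passed with array weights (0.033), in a fit of the overexpressor arrays alone (0.039) and, at a rounded 0.05, with quantile normalization.

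CYP71B23 (AT3G26210) was at 560, 508 and 670 in the salt-treated overexpressor, against 188, 358 and 393 in the mock-treated overexpressor. The wild-type had 962, 736 and 957 with salt, against 480, 262 and 243 after mock treatment. It rose by 0.95 (SE 0.29, adjusted p = 0.019) and by 1.49 (SE 0.29, adjusted p = 0.0014), overexpressor first, with no overlap. The overexpressor call was lost without overexpressor mock replicate 1 (adjusted p = 0.087) or overexpressor salt replicate 3 (0.072). Its neighbour CYP71B22 (AT3G26200) was at 102, 75.2 and 68.5 in the salt-treated overexpressor, against 483, 364 and 495 in the mock-treated overexpressor. The wild-type was at 3412, 63.6 and 374 with salt, against 220, 169 and 304 after mock treatment. The overexpressor groups were clearly apart while the salt-treated wild-type arrays lay on both sides of the mock-treated arrays. The overexpressor change was -2.46 (SE 0.97, adjusted p = 0.059), and it passed the test without wild-type salt replicate 1 (adjusted p = 0.0013) or 2 (0.0029) and in a fit of the overexpressor arrays alone (4.6e-06). CYP71B21, the gene on the other side of CYP71B22, had 119, 4.44 and 31.5 in the salt-treated wild-type, against 0.96, 4.20 and 4.14 in the mock-treated wild-type (log2 change 3.32, SE 1.25, adjusted p = 0.052). CYP71B21 and CYP71B22 had their highest signal of the 12 arrays in wild-type salt replicate 1, as did 11 of the 38 members in all. CYP71B21 passed the test without wild-type salt replicate 2 (adjusted p = 0.0067) or overexpressor salt replicate 1 (0.04), but with low signals set to the 20th percentile its change was 0.88 (adjusted p = 0.12).

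CYP71B5 (AT3G53280) fell by 0.72 in the overexpressor (SE 0.22, adjusted p = 0.017) and fell by 0.61 in the wild-type (SE 0.22, adjusted p = 0.04). Its signals were 149, 118 and 119 in the salt-treated overexpressor, against 159, 236 and 251 in the mock-treated overexpressor. Wild-type signals were 137, 174 and 143 with salt, against 225, 289 and 188 after mock treatment. The overexpressor call was lost without its mock replicate 2 or 3 or its salt replicate 2 or 3, and the wild-type call without wild-type mock replicate 1 or 2, wild-type salt replicate 1 or 3, or overexpressor salt replicate 2 (adjusted p of 0.05 to 0.17). The remaining CYP71B genes, CYP71B24, CYP71B25, CYP71B27, CYP71B31, CYP71B16, CYP71B30P and CYP71B38, passed the test in neither genotype.

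Few P450 members were called different between the genotypes, as were few of all probe sets. Under mock treatment 0 members were higher and 1 lower in the overexpressor than in the wild-type, against 0.132% and 0.431% of all probe sets. Under salt 1 was higher and 1 lower, against 1.23% and 0.783%. The salt response itself differed for 1 member, which changed more in the overexpressor, against 0.246% of all probe sets. The called members, CYP71B11, CYP708A3 and CYP71B7, had been named only through the authors' lists from these same arrays. Nothing is therefore read from these counts against the background. None of the 23 genes paired through the annotation passed any of these 3 tests in limma. At an unadjusted p under 0.05 in limma, 0 of them were higher and 1 lower under mock treatment, 1 was higher and 3 lower under salt, and 1 was higher and 1 lower in the interaction. The shares of all probe sets at this unadjusted limit were not computed, and those above are at the adjusted limit. Nothing is therefore read from the unadjusted counts.

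CYP708A3 (AT1G78490), a relative of the thalianol hydroxylase of roots, was the member whose interaction of genotype and salt was called. Its signal was 1240, 1129 and 1169 in the salt-treated overexpressor, against 343, 351 and 353 in the mock-treated overexpressor. The wild-type had 665, 751 and 718 with salt, against 357, 364 and 387 after mock treatment. The replicates lay close together in all 4 groups, and the mock-treated genotypes differed by a log2 of -0.08 (SE 0.09, adjusted p = 0.88), while the salt-treated overexpressor was above the salt-treated wild-type on every array. Under salt it was higher by 0.73 in the overexpressor than in the wild-type (SE 0.09, adjusted p = 0.0045 in limma). This call was lost in a limma fit of the groups compared alone (adjusted p = 0.13) and by the methods' t-test (0.32). The log2 change with salt was 1.76 in the overexpressor and 0.94 in the wild-type (SE 0.09 each, adjusted p = 1.3e-05 in the wild-type), and the interaction was 0.81 (SE 0.13, adjusted p = 0.033). The gene had been listed for its response in the overexpressor, so both differences rest on arrays that took part in its choice. The interaction passed the test in fits without wild-type salt replicate 1 or 2 but not without any other single array (adjusted p of 0.053 to 0.12).

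CYP71B11 (AT5G25120) and CYP71B7 were lower in the overexpressor. CYP71B11 was at 183, 196 and 156 in the mock-treated overexpressor, against 374, 423 and 348 in the mock-treated wild-type. The groups were apart, with a log2 difference of -1.10 (SE 0.20), and the gene had been listed for this difference. The call was lost without any of the 6 mock-treated arrays (adjusted p of 0.079 to 0.16). After salt it was at 202, 122 and 123 in the overexpressor, against 114, 131 and 131 in the wild-type, which overlapped. Its log2 change with salt was -0.29 in the overexpressor (SE 0.20) and -1.60 in the wild-type (SE 0.20), and the interaction was 1.31 (SE 0.28, adjusted p = 0.071 in limma). CYP71B11 had also been listed as lower with salt in the wild-type. The interaction thus holds values that chose the gene, and it is description. CYP71B7 was lower under salt by 0.68 in the overexpressor than in the wild-type (SE 0.16, adjusted p = 0.048), a call that was lost without any wild-type mock array, wild-type salt replicate 3, overexpressor mock replicate 2 or 3, or any overexpressor salt array, with adjusted p of 0.054 to 0.16, and that again rests on arrays that took part in the choice of the gene. CYP705A19 (AT3G20100), at 770, 792 and 970 in the salt-treated overexpressor against 798, 296 and 388 in the salt-treated wild-type, overlapped between the genotypes (log2 difference 0.90, SE 0.34, adjusted p = 0.19). Its wild-type salt response was 1.15 (SE 0.34, adjusted p = 0.016), lost without wild-type mock replicate 1 (0.072) or 3 (0.064) or wild-type salt replicate 1 (0.061).

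Of 35 P450 genes that carry other symbols, 6 were matched to probe sets by gene name, of which 4 were higher and 1 lower in the overexpressor and 4 were higher and 2 lower in the wild-type. Of these, 5 had been named through the authors' lists, so the counts are description. Besides AOS, HPL1 and PAD3, BR6OX2, the last oxidase of brassinosteroid synthesis, had log2 changes of 1.85 and 0.82 (SE 0.17 each), and LUT1, a carotenoid hydroxylase, had -1.65 and -1.67 (SE 0.16 each). The 1 of the 6 paired through the annotation was matched by the symbol LCR alone. Whether this probe set measures the P450 fatty acid hydroxylase of that name was not checked. It had -0.09 in the overexpressor (adjusted p = 0.56) and fell by 0.31 in the wild-type (SE 0.11, adjusted p = 0.041 in limma). The P450 reductases, which supply electrons to many P450 enzymes but not to all, and 14 genes of brassinosteroid synthesis and signaling were not named among the probe sets used here. The genes of the next 3 lists that could be measured had all been named through the authors' lists of changed probe sets, so their counts are description and are not set against the shares of all probe sets. Of 23 cutin, suberin and wax genes, 2 were measured, with CER1 higher and CER8 lower in both genotypes. Of 13 genes each for synthesis and turnover of gibberellin and of cytokinin, 1 and 2 were measured. In the overexpressor 0 were higher and 1 and 2 lower, and in the wild-type 0 were higher and 1 and 1 lower. They were GA3OX1 for gibberellin, and IPT9 and CKX4 for cytokinin, of which CKX4 did not pass the test in the wild-type.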

How the data were processed

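Probe intensity on 12 ATH1 arrays had been summarized by the authors with MAS5, and the deposited intensity values, 1 per probe set on a linear scale, were used as given. Detection calls were not used. The 64 Affymetrix controls were left out, and for 22746 probe sets a linear model with a mean for each of the 4 groups was fitted to log2 signals (limma 3.58.1, R 4.3.3, variance trend with intensity). Tests were two-sided, and p-values were adjusted over all probe sets. The 5 P450 probe sets with several genes were left out. Names were checked against RefSeq (TAIR10.1), whose symbols matched for all 38 loci. The build behind the probe sets is not given in the sources used here, so no coordinates are printed.

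The members and lists were chosen with earlier results of these data known. Genes were named for a hormone or glucosinolate role, for being among the 8 most positive or negative salt changes that passed the test at a signal above the median, for a genotype difference, or for being among the 5 highest signals. Other genes were chosen after their values were seen. Precision is limited by the number of arrays, and columns with no sample numbered 0. Steps were tested on simulated data with known changes. The alternatives were quantile normalization, median centring, a signal floor at the 20th percentile, a filter at the 40th percentile, fits without the trend, with array weights, with a block for the replicate number or with the groups compared alone, the fold limit, omission of single arrays, and the methods' t-test. Deviations of same-numbered arrays were at most weakly correlated over all probe sets, so the numbers were not used as pairs.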

Additional observations from a re-analysis of the deposited data

Results flagged for a closer look

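CYP708A3 was flagged because its interaction of genotype and salt passed the test, on arrays that had taken part in its choice. The interaction was 0.81 on the log2 scale (SE 0.13, adjusted p = 0.033 in limma), with log2 changes of 1.76 in the overexpressor and 0.94 in the wild-type. The salt-treated overexpressor arrays were at 1240, 1129 and 1169, all above the salt-treated wild-type arrays at 665, 751 and 718. The gene had been listed for its response in the overexpressor, and the interaction did not pass the test without the intensity trend (adjusted p = 0.1) or with the replicate block (0.069).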

How the results depend on the processing

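None of the called results changed direction under the alternatives run. Results near background that had not passed the test could change sign with the floor, as CYP79A2 did, with log2 changes of -0.02 in place of 1.09 in the overexpressor and -0.01 in place of 1.58 in the wild-type. Of 52 calls of single genes, median centring, the floor and array weights kept all 52, the filter kept all 45 that it tested, quantile normalization lost 4, the fit without the trend 5, the groups compared alone 5 of 51, and the methods' t-test 34 of 51, with 17 kept. Counts of members higher and lower below are those at an adjusted p under 0.05. In the overexpressor, 6 members fell with salt, against 2 by the t-test. In the wild-type, 18 rose, against 0 by the t-test and 11 with the fold limit, and 7 fell, against 4 with the filter, 0 by the t-test and 1 with the fold limit. Under mock treatment 1 member was lower in the overexpressor, against 0 without the trend or by the t-test, 3 with array weights and 2 with the groups compared alone. Under salt 1 was higher, against 4 with array weights and 0 with the groups compared alone, the t-test or the fold limit, and 1 was lower, against 3 with array weights and 0 with quantile normalization, no trend, the groups compared alone, the t-test or the fold limit. In the interaction 1 was higher, against 2 with quantile normalization, median centring or the filter, 3 with array weights and 0 without the trend, and 0 were lower, against 2 with array weights. Leaving out single arrays gave 16 to 18 higher and 4 to 7 lower in the overexpressor, 16 to 19 higher and 4 to 7 lower in the wild-type, 0 to 2 lower under mock treatment, 1 to 3 higher and 0 to 5 lower under salt, and 0 to 2 higher and 0 to 2 lower in the interaction. Without wild-type salt replicate 2, 5 members were lower in the overexpressor under salt and 2 under mock treatment, and without wild-type salt replicate 1, 3 were higher under salt. The wild-type count of 7 lower became 4 without wild-type mock replicate 1 or wild-type salt replicate 3. The cause of these changes was not tested.

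The correlation of same-numbered arrays' deviations, taken over all probe sets, was -0.07 to 0.09 over 18 pairs of arrays, and 0 pairs exceeded 0.1. The labels give only a replicate number, and a low correlation over all probe sets cannot show that no batch was shared. With the replicate block, 17 members were higher and 7 lower in the overexpressor, 18 were higher and 7 lower in the wild-type, 0 were lower under mock treatment, 2 were higher and 0 lower under salt, and 0 were higher in the interaction. Of the 52 calls, 49 kept their side of the threshold. Signals near background, which 12 members had on at least 1 array, make large log2 changes uncertain.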
